A study of Bos taurus with 10 samples.

Results

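The 10 genes described here form the LIF and IL6 route to STAT3: the ligands *LIF* and *IL6*, the receptor chains *LIFR*, *IL6R* and *IL6ST*, the kinases *JAK1* and *JAK2*, the transcription factor *STAT3* and the inhibitors *SOCS3* and *PIAS3*. They were chosen by name as parts of the pathway, and all 10 were found among the 20112 genes of the table. Their RNA was measured in 10 single bovine early blastocysts by Smart-seq2, a method that amplifies polyadenylated RNA from very little material. All embryos came from oocytes matured and fertilized in vitro and were injected as zygotes with mRNA of BE3, an editor that converts cytosine to thymine without cutting both DNA strands. The 5 WT embryos (nc1 to nc5) received this mRNA alone, and the 5 *SOX2* KO embryos (ko1 to ko5) received it together with sgRNAs designed to turn codons of *SOX2* into stop codons. The labels give an age of 7.0 days after fertilization for both groups, whereas the paper's methods give a slightly later time. Each embryo was its own edited founder rather than a member of a line, so cells of 1 embryo could carry different edits, and the editor-only controls share the injection but not a guide.

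LIF and IL6 are secreted cytokines that bind LIFR and IL6R and signal through a shared partner, gp130, the product of *IL6ST*. The receptor complex activates the kinases JAK1 and JAK2, which phosphorylate STAT3, and STAT3 then enters the nucleus and switches on its targets, among them its own inhibitor *SOCS3*. In mouse embryonic stem cells this route sustains self-renewal, and in bovine blastocysts IL6 is known to act on the inner cell mass. The RNA values below show neither phosphorylation nor protein.

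Between 2223670 and 5134855 reads were recovered per WT embryo and between 2578284 and 4337342 per *SOX2* KO embryo. The ribosomal RNA gene *RN18S1* took 26.4% to 37.0% of reads in the controls and 32.5% to 45.0% after *SOX2* KO, and the number of genes with a read was 15919 to 18092 and 17987 to 19813, respectively. Values are normalized read counts, and fold changes are on the scale of log2(normalized read count + 1). A gene was called when its Benjamini-Hochberg adjusted p in limma was at most 0.05 and its fold change at least 2 or at most 0.5. By this rule 2024 of 20056 tested genes (10.1%) were called. The median log2 fold change over all tested genes was 0.25, and it was -0.11 where the mean reached 100 or more.

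The normalized read count of *SOX2*, the targeted gene, was 56.5, 93.4, 83.5, 73.0 and 84.4 in the WT embryos. In *SOX2* KO it was 39.0, 26.4, 64.0, 82.1 and 71.5. The groups overlapped, and the log2 difference of -0.55 ± 0.27 (SE) did not pass (adjusted p = 0.167). A base change that creates a stop codon leaves reads on the transcript, so this count does not check the edit, and the authors' genotyping of cDNA was not analysed here.

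Of the 10 pathway genes, 1 was called lower in *SOX2* KO (*STAT3*) and 1 was called higher (*LIF*), against 1.16% called lower and 8.93% called higher among all tested genes. Both belong to the pluripotency genes that the study selected from these same embryos, so their calls are not independent evidence. By adjusted p alone, 2 genes were lower (*STAT3* and *IL6ST*, background 3.2%) and 1 was higher (*LIF*, background 10.4%). The groups did not overlap for *STAT3* and *IL6ST*, 2 of 10 genes against 9.17% of all tested genes. Of the 10 fold changes, 5 were above 0 and 5 below, with a median of -0.03.

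**Figure D1:**
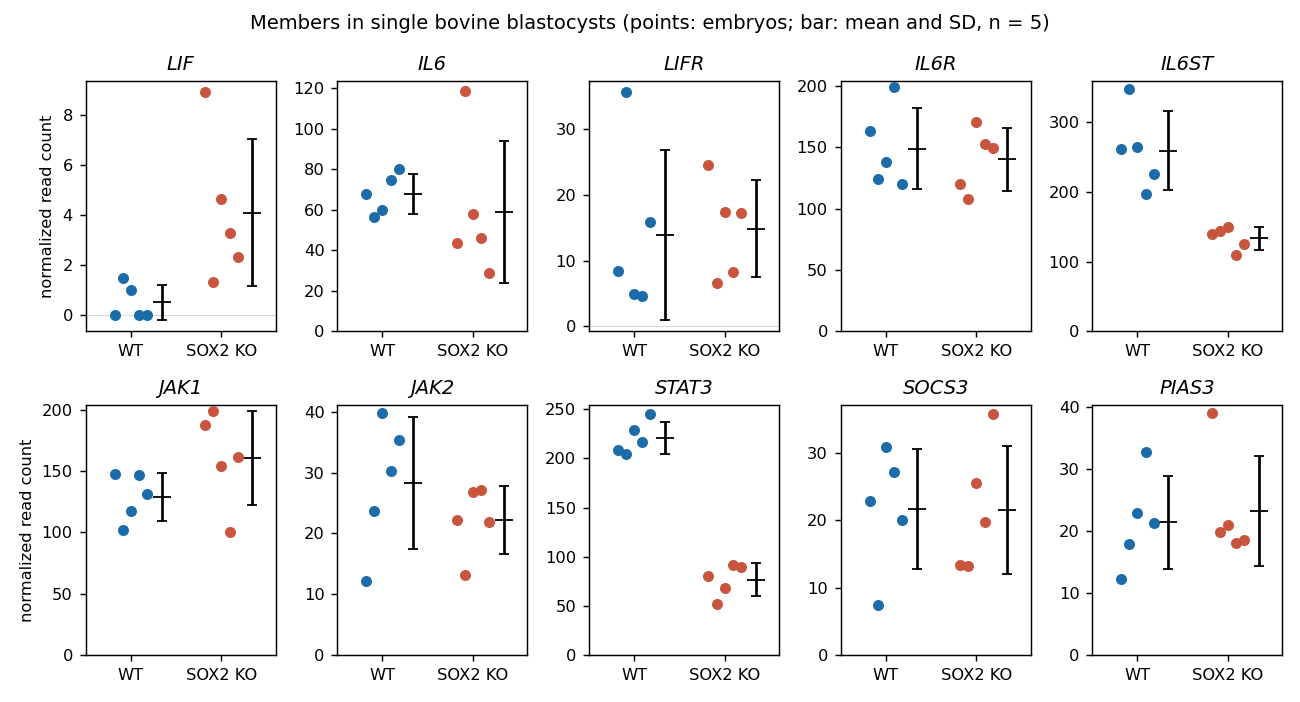
Normalized read count (vertical axis, linear, a separate scale for each gene) of the 10 pathway genes in WT (blue) and *SOX2* KO (red) embryos. Each point is 1 embryo and the black bar gives the mean and SD (n = 5). The groups separate for *STAT3* (means 221 and 76.4) and *IL6ST* (259 and 133) and overlap for the other 8 genes.

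*STAT3* encodes the transcription factor on which the pathway converges. Its normalized read count was 208, 205, 229, 217 and 245 in nc1 to nc5. In ko1 to ko5 it was 80.2, 51.5, 68.6, 92.0 and 89.9. The highest *SOX2* KO embryo, ko4, thus stayed far below the lowest WT embryo, nc2. The mean fell from 221 ± 16.4 to 76.4 ± 16.7 (SD, n = 5 each), a ratio of 0.346. The log2 fold change was -1.54 with a 95% interval from -1.92 to -1.17 (adjusted p = 3.13e-05). The value rested on 1335 reads in WT and 360 in *SOX2* KO. At this level, 4548 genes averaging 100 or more, 61 (1.34%) were called lower. The WT embryos were alike, with a coefficient of variation of 7.44% where counting of reads alone gives 6.46%. In *SOX2* KO the coefficient was 21.9% against 12.1% from counting, with ko2 lowest.

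These are whole embryos, so fewer cells of a type and less RNA per cell cannot be told apart. Markers of the epiblast, the pluripotent lineage of the blastocyst, were lower alongside *STAT3*. Of the 14 tested epiblast markers, which include *SOX2*, 6 were called lower and 0 higher, where 1.16% and 8.93% of all tested genes were. Their summed normalized count ran from 3450 to 4301 in the WT group and from 2070 to 2664 in the *SOX2* KO group. The study had selected *NANOG*, *POU5F1*, *PRDM14* and *SALL4* of this list as lower in these same embryos. The epiblast count is therefore not independent evidence. Of the 12 primitive endoderm markers, 5 were called lower and 0 higher (same background), and 4 had a fold change above 0, with a list median of -0.18 on the log2 scale. Their sums, 9174 to 16548 in WT against 4553 to 7329 in *SOX2* KO, were mostly the matrix gene *FN1* (7708 to 14623 against 3143 to 5856), and the mean log2 value of the list overlapped, 5.72 to 6.39 against 4.97 to 6.15. Of the 14 trophectoderm markers, 1 was called higher and 0 lower (same background), and by adjusted p alone 2 were higher and 1 lower. Their sums, 27367 to 40741 in WT against 38185 to 51994 in *SOX2* KO, were mostly 2 keratin genes. These were *KRT8* (means 17496 and 22437) and *KRT18* (9100 and 15124). The mean log2 value of the trophectoderm list overlapped, 7.67 to 8.10 against 8.01 to 8.62. The part that the makeup of the embryos had in the fall of *STAT3* was not tested.

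*STAT3* was also set against *POU5F1*, which encodes the pluripotency factor OCT4, a protein that bovine trophectoderm also carries at this stage. The log2 difference between *STAT3* and *POU5F1* was -2.44 ± 0.27 in WT and -3.24 ± 0.52 in *SOX2* KO (SD, n = 5). It was lower in *SOX2* KO by a log2 difference of -0.80 (exact permutation test, two-sided, p = 0.0159, adjusted p = 0.0278 over 7 relations). *POU5F1* itself averaged 1212 ± 188 in WT embryos and 723 ± 118 after *SOX2* KO. Its log2 fold change of -0.75 passed the adjusted p (0.00631) but not the fold threshold. The WT range of the difference, -2.82 to -2.14, met the *SOX2* KO range, -3.97 to -2.72, at its edge. The difference no longer passed with quantile normalization or without nc2, nc5, ko2, ko3 or ko5, with an adjusted p of 0.0556 each time.

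Relatives of *STAT3* answer to other cytokines. *STAT2*, which acts in interferon signalling, had a log2 fold change of -0.22 (interval -0.72 to 0.27). *STAT5B*, which acts downstream of growth hormone and prolactin, had 0.16 (-0.52 to 0.83). *STAT4*, *STAT5A* and *STAT6* were covered by few reads, 13 to 43 per group, and their intervals all included 0. *STAT5A* and *STAT5B* are close paralogs, and reads could be shared between them.

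Set against each relative in the same embryo, *STAT3* was lower in *SOX2* KO for *STAT2*, *STAT5A*, *STAT5B* and *STAT6*. The log2 difference between *STAT3* and *STAT2* was 2.35 ± 0.29 in WT and 1.03 ± 0.29 in *SOX2* KO, and every WT embryo lay above every *SOX2* KO embryo. The exact permutation test gave p = 0.00794, the smallest that 5 against 5 embryos allow, and an adjusted p of 0.0185. The same p and adjusted p were found for *STAT5B* (difference of -1.70) and *STAT5A* (-2.79). For *STAT6* the difference was -2.62 (exact p = 0.0317, adjusted p = 0.0444), and for *STAT4* it was -1.75 (exact p = 0.0635, adjusted p = 0.0741). Because *STAT3* by itself separated the groups, none of these relations is evidence independent of its call. The relations to *STAT2*, *STAT5A* and *STAT5B* passed whichever embryo was left out. The relation to *STAT6* did not pass without nc1, nc2, nc5, ko1, ko2, ko3 or ko5, with a pseudocount of 0.1 or with quantile normalization (adjusted p of up to 0.0889). The relation to *STAT5A* did not pass with quantile normalization (-1.92, adjusted p = 0.0889), and it was -3.51 with a pseudocount of 0.1. *STAT5A* had 25 reads in WT, 0 of them in nc2, and 43 in *SOX2* KO, and *STAT6* had 25, again 0 in nc2, and 40. Genes averaging under 10, as both do, had a median log2 fold change of 0.93, and its part in these 2 relations was not tested.

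**Figure D2:**
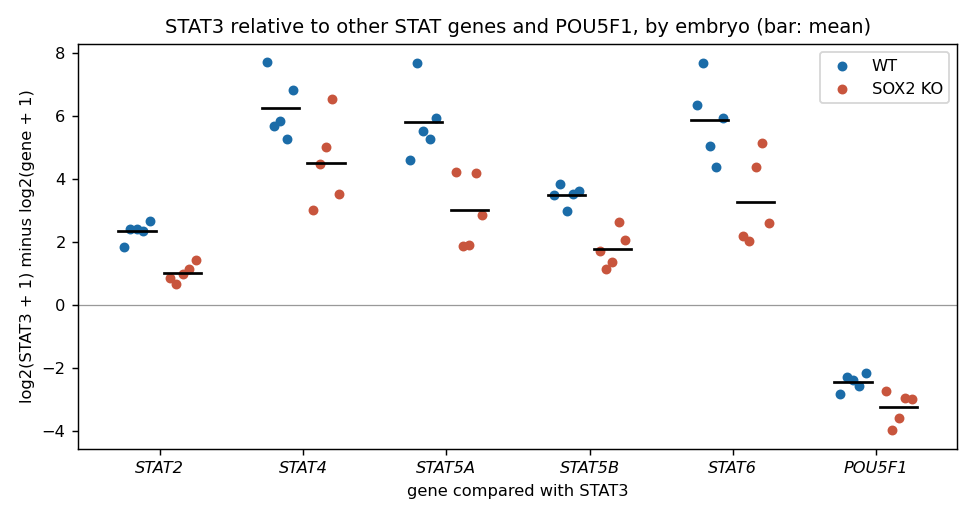
Difference log2(*STAT3* + 1) minus log2(gene + 1) in each embryo (vertical axis), for 5 STAT genes and *POU5F1* (horizontal axis), with WT in blue, *SOX2* KO in red and the group mean as a bar. The groups separate for *STAT2*, *STAT5A* and *STAT5B* and overlap for *STAT4*, *STAT6* and, at the edge, *POU5F1*.

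Among the ligands, *LIF* was close to the limit of detection. Its normalized read count was 0, 1.48, 0.994, 0 and 0 in WT, which stands for 2 reads in all. In *SOX2* KO it was 8.91, 1.32, 4.65, 3.29 and 2.31, from 19 reads. A read was found in 5 of 5 *SOX2* KO embryos and in 2 of 5 WT embryos, and the groups overlapped because ko2 lay below nc2. The mean of 4.09 ± 2.96 in *SOX2* KO was 1.48 times a WT level of 3 reads per embryo, the floor used here. That ratio is not a lower bound, since ko2 (1 read) and ko5 (2 reads) were at the floor too. *LIF* rose by the rule used (adjusted p = 0.0447), but the call was lost in 13 of 21 alternatives, over which the adjusted p ranged from 0.0138 to 0.317. It was lost without nc1, nc2, nc4, nc5, ko1, ko3 or ko5, with an adjusted p of up to 0.111. At the level of *LIF*, below an average of 10, 1229 of 8722 genes (14.1%) were called higher.

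*IL6* was readily detected and did not pass. Its normalized read count was 67.9, 56.4, 59.7, 74.6 and 80.3 in WT. It was 43.4, 119, 58.1, 46.0 and 28.8 in *SOX2* KO. The *SOX2* KO embryos spread on both sides of the WT range, with ko2 above every WT embryo and ko1, ko4 and ko5 below every one. The log2 fold change was -0.35 with an interval from -0.94 to 0.25 (adjusted p = 0.412). Leaving out ko2 gave -0.64 (adjusted p = 0.0816). The coefficient of variation was 14.7% in WT, where counting gives 11.7%, and 59.3% in *SOX2* KO, where counting gives 13.7%. The difference between these spreads was not tested.

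Most of the ligand genes of the IL6 family were scarce. *CLCF1*, which encodes cardiotrophin-like cytokine, had a log2 fold change of 0.17 (interval -0.63 to 0.97). *IL11*, *CNTF*, *CTF1*, *IL27* and *EBI3* did not pass, with means of at most 5.86 in either group.

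*IL6ST* encodes gp130, the chain that all IL6-family receptors share. Its normalized read count was 261, 347, 265, 197 and 225 in WT. It was 139, 144, 150, 109 and 125 in *SOX2* KO. Every *SOX2* KO embryo lay below every WT embryo, and nc2 was the highest of all. The mean was 259 ± 56.7 in WT and 133 ± 16.4 in *SOX2* KO, a ratio of 0.515, from 1476 and 604 reads. The log2 fold change of -0.93 (interval -1.29 to -0.57) passed the adjusted p (0.00227) but missed the fold threshold. It passed both when embryos were scaled to equal totals (-1.06), in edgeR (-1.03) and without nc4 (-1.03).

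The chains that give the receptor its ligand did not pass. *IL6R* had 163, 125, 138, 200 and 120 normalized read counts in WT and 120, 108, 171, 153 and 150 in *SOX2* KO. The groups covered much the same range, and the log2 fold change was -0.08 with an interval from -0.47 to 0.31. *LIFR* had 8.39, 35.6, 4.97, 4.66 and 15.9 in WT and 24.5, 6.60, 17.4, 8.21 and 17.3 in *SOX2* KO. It varied widely within both groups, with nc2 the highest, and its interval ran from -0.76 to 1.40. Over the 7 receptor genes of the IL6 family, 0 were called, and *IL6ST* alone passed the adjusted p. *IL11RA*, the receptor chain for IL11, had a log2 fold change of 0.78 ± 0.31 (adjusted p = 0.0902). *OSMR*, the oncostatin M chain, had 2 reads in WT and 18 in *SOX2* KO (adjusted p = 0.0694), and *IL27RA* had 3 and 32 (adjusted p = 0.0600). *CNTFR*, the chain for ciliary neurotrophic factor, had 18 and 17.

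Neither kinase passed. *JAK1*, which pairs with most cytokine receptors, had 148, 102, 117, 147 and 132 normalized read counts in WT and 188, 199, 155, 100 and 161 in *SOX2* KO. Of the *SOX2* KO embryos 4 lay above every WT embryo and ko4 lay below every one. For *JAK1* the log2 fold change was 0.29 with an interval from -0.12 to 0.69 (adjusted p = 0.311), and without ko4 it was 0.45 (adjusted p = 0.0664). *JAK2*, the second kinase bound by gp130, had 12.2, 23.7, 39.8, 30.3 and 35.4 in WT and 22.3, 13.2, 26.7, 27.1 and 21.9 in *SOX2* KO. The *SOX2* KO embryos all lay inside the WT range, and the interval ran from -0.99 to 0.44. *TYK2* and *JAK3*, the remaining kinases of the family, had log2 fold changes of 0.47 and 1.10 and did not pass.

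**Figure D3:**
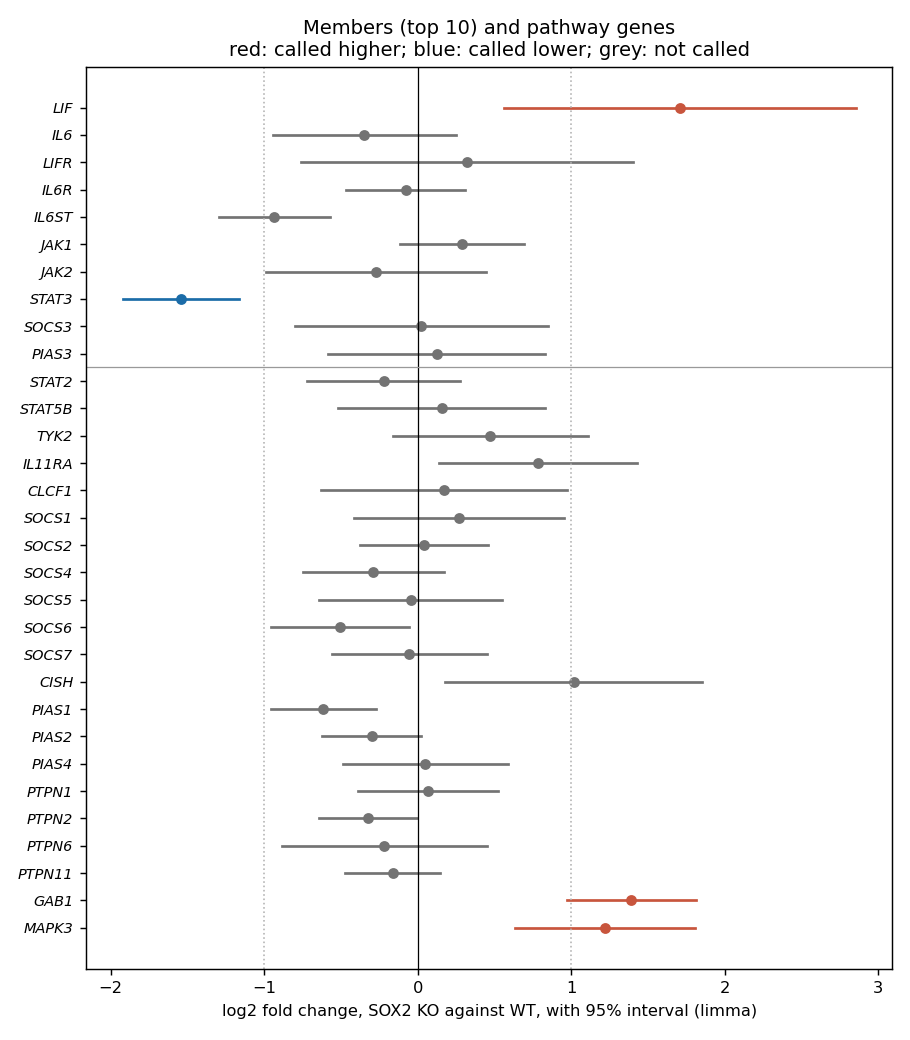
Log2 fold change, *SOX2* KO against WT (horizontal axis), of the 10 pathway genes above the grey line and of 21 related genes below it; points are estimates and lines the 95% intervals of limma (n = 5 per group). Dotted lines mark a 2-fold change; red genes were called higher, blue ones lower and grey ones not called. The interval of *STAT3* (-1.92 to -1.17) lies wholly beyond the dotted line.

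Neither inhibitor passed. *SOCS3*, which blocks JAK kinases on gp130 and is itself switched on by STAT3, had 22.9, 7.42, 30.8, 27.2 and 20.1 normalized read counts in WT. It had 13.4, 13.2, 25.6, 19.7 and 35.7 in *SOX2* KO. The lowest value was in nc2 and the highest in ko5, and the log2 fold change was 0.02 with an interval from -0.80 to 0.85. The coefficient of variation was 41.4% in WT, where counting of its 135 reads gives 20.6%, and 43.9% in *SOX2* KO, where counting of 99 reads gives 22.8%. *PIAS3*, which keeps STAT3 from DNA, had 12.2, 17.8, 22.9, 32.6 and 21.2 in WT and 39.0, 19.8, 20.9, 18.1 and 18.4 in *SOX2* KO. All *SOX2* KO embryos other than ko1 fell inside the WT range, and the interval ran from -0.59 to 0.83.

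Of the 16 SOCS, CISH, PIAS and phosphatase genes tested, 0 were called, and the median log2 fold change was -0.05. *PIAS1*, which encodes an inhibitor of STAT signalling, was the one that passed the adjusted p. The embryos had normalized read counts of 167, 175, 146, 162 and 198 in WT and 105, 133, 110, 105 and 99.2 in *SOX2* KO. The groups did not overlap, and the log2 fold change was -0.62 ± 0.16 (adjusted p = 0.0193). *CISH*, a feedback inhibitor of STAT5, had means of 9.81 ± 2.49 and 22.2 ± 9.45 and did not pass (adjusted p = 0.0906). The tyrosine phosphatase genes *PTPN1*, *PTPN2*, *PTPN6* and *PTPN11* had log2 fold changes from -0.33 to 0.06.

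Among genes that STAT3 is known to switch on in other cells, most were not called. Of 18 tested, *SOCS3* among them, 1 was called higher and 0 lower, close to the 8.93% and 1.16% of all tested genes, and the median log2 fold change was 0.03. *IRF1*, an interferon-response factor, had 54.9, 37.1, 74.6, 44.3 and 51.9 normalized read counts in WT and 34.5, 18.5, 24.4, 21.4 and 33.4 in *SOX2* KO. The groups did not overlap, and its log2 fold change of -0.97 ± 0.27 passed the adjusted p (0.0248) but not the fold threshold. *MYC*, a growth regulator that the study also selected from these embryos, rose from 11.5 ± 10.9 to 34.9 ± 14.1 (log2 fold change 1.81 ± 0.49, adjusted p = 0.0206), although nc4 lay above ko3 and ko4. Its call was lost without nc1, ko1 or ko5 (adjusted p of up to 0.0656) and with the *RN18S1* share of reads as a covariate (adjusted p = 0.106). *KLF4* and *TFCP2L1*, naive pluripotency factors, had log2 fold changes of -0.36 (interval -0.79 to 0.06) and -0.15 (-0.48 to 0.18).

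gp130 also feeds the RAS-MAPK and PI3K arms through adaptor proteins. Of 17 genes of these arms, 2 were called higher and 0 lower, where 8.93% and 1.16% of all tested genes were. Most of the 17 averaged 100 or more, a level at which 2.29% of all genes were called higher. The share was 6.76% among genes averaging from 10 to under 100. *GAB1*, an adaptor that links receptors to both arms, had 80.9, 84.5, 63.6, 109 and 87.4 normalized read counts in WT and 253, 236, 142, 298 and 210 in *SOX2* KO. Every *SOX2* KO embryo lay above every WT embryo. The estimate was a log2 fold change of 1.39 with an interval from 0.97 to 1.81 (adjusted p = 0.000272). *MAPK3*, which encodes ERK1, had 27.5, 37.1, 38.8, 52.1 and 22.4 in WT and 73.5, 43.6, 112, 87.1 and 111 in *SOX2* KO. It rose by a log2 fold change of 1.22 ± 0.28 (adjusted p = 0.00908), with ko2 alone inside the WT range. The *MAPK3* call was lost with the *RN18S1* share of reads as a covariate (adjusted p = 0.248). *GRB2*, an adaptor that couples receptors to RAS, had a log2 fold change of -0.32 and did not pass.

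Receptors of other JAK-STAT cytokines answer to interleukins, interferons and hormones. Of 28 tested, 8 were called higher and 1 lower, where 8.93% and 1.16% of all tested genes were, with a median log2 fold change of 1.38. Most were scarce, since 20 of the 28 had a mean under 10. Of those 20, 6 were called higher, where 14.1% of all genes at this level were, and their median log2 fold change was 1.46 against 0.93 for all genes at this level. *IL2RA*, a chain of the IL2 receptor, had 0 to 5 reads per WT embryo against 5 to 18 per *SOX2* KO embryo, and its normalized read counts did not overlap (adjusted p = 0.00925). *IL22RA1*, a chain of the IL22 receptor, had at most 2 reads in a WT embryo and 4 to 8 in *SOX2* KO, and its *SOX2* KO mean was at least 2.11-fold higher than the floor (adjusted p = 0.0112). The ratio of the *SOX2* KO mean to the floor was 3.27 for the prolactin receptor *PRLR*, 3.56 for *CSF2RB* and 3.08 for *IL21R*. These are not lower bounds, since ko4 (*PRLR* and *IL21R*) and ko2 (*CSF2RB*) had 1 read and were at the floor. The calls of *PRLR* and *CSF2RB* were lost without ko1, ko3 or ko5 (adjusted p of up to 0.0571 and 0.0651). *IL12RB1*, *IL15RA* and *IL20RB* were the remaining ones called higher, and each call was lost in 8 or more alternatives, the fits without nc1, nc2, ko1, ko2 or ko5 among them. With the *RN18S1* share of reads as a covariate, none of the 8 receptors stayed called higher (*IL2RA*, adjusted p = 0.145). With quantile normalization *IL2RA* alone of the 8 kept its call. The call of *IL22RA1* was also lost with a pseudocount of 5.

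Measures of the libraries moved with these scarce genes. More genes had a read in *SOX2* KO embryos, as given above. Markers of leukocytes, which use many of these receptors, summed to 41.2 to 75.6 normalized counts per WT embryo against 113 to 223 per *SOX2* KO embryo, and 4 of 9 were called higher, against 8.93% of all tested genes (*PTPRC*, *ITGAM* and *LCP1* among them). *PTPRC*, which encodes the pan-leukocyte protein CD45, had 2 reads in WT and 24 in *SOX2* KO. Markers of cumulus and granulosa cells had sums of 57.8 to 172 and 98.6 to 501, and 0 of 12 were called. The higher sums were mostly *CYP11A1*, with 402, 331, 359, 1.64 and 228 in ko1 to ko5 against 14.8 to 83.9 in WT. No marker of either list was at 0 in all embryos, and the part of such signal in the receptor calls was not tested.

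*IL13RA1*, a chain of the IL4 and IL13 receptors, was the receptor called lower. Normalized read counts were 124, 89.0, 119, 187 and 204 in WT and 74.6, 56.8, 93.0, 15.6 and 85.3 in *SOX2* KO. The groups overlapped by nc2 alone, and ko4 was far below the rest. For *IL13RA1* the log2 fold change was -1.29 with an interval from -2.04 to -0.55 (adjusted p = 0.0230), and the call was lost without nc4 (adjusted p = 0.0619), nc5 (0.0562) or ko4 (log2 fold change -0.85). Over all 95 pathway genes other than the 10 named first, 12 were called higher (8.93% of all tested genes), 2 were called lower (1.16%) and the groups did not overlap for 8 (9.17%). These counts lie near the background, and the median log2 fold change was 0.25, as over all genes.

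**Figure D4:**
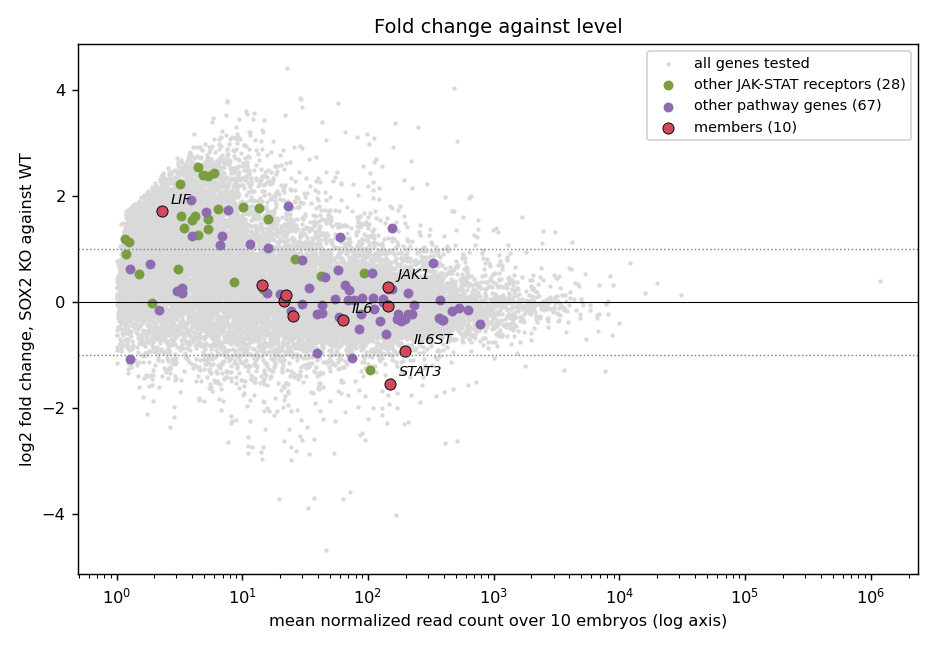
Log2 fold change, *SOX2* KO against WT (vertical axis), against the mean normalized read count over 10 embryos (horizontal axis, logarithmic) for all 20056 tested genes (grey), 28 receptors of other JAK-STAT cytokines (green), 67 other pathway genes (purple) and the 10 LIF/IL6-STAT3 genes (red, 5 named). Most green points lie above 0 at low counts, while *STAT3* and *IL6ST* lie low in the range above 100.

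The genes whose pattern was most like that of *STAT3* were found from the root mean square difference of centred log2 values over the 10 embryos, using the 6981 genes that averaged 50 or more. They were *ZBTB44* (0.243), *L3MBTL2* (0.268), *SPIC* (0.279), *BCNT2* (0.309) and *AKAP12* (0.330), where the median over all compared genes was 0.814. *SPIC*, which encodes an ETS-family transcription factor, had means of 616 ± 115 in WT and 190 ± 39.2 in *SOX2* KO. *L3MBTL2*, which encodes a subunit of a Polycomb complex, had 199 ± 27.5 and 76.7 ± 18.2. *IL6ST* came 105th in this order (0.494) and *IL6R* 3064th. The measure includes the difference between the groups, so it is a description only.

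**Figure D5:**
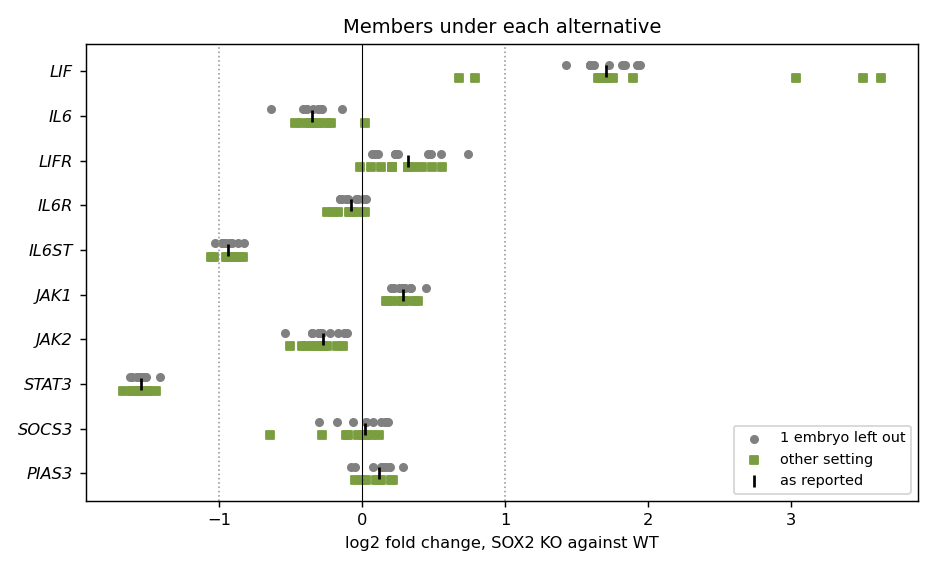
Log2 fold change, *SOX2* KO against WT (horizontal axis), of the 10 pathway genes (vertical axis) as reported (black tick), with 1 embryo left out (grey points) and under the other settings (green squares). *STAT3* stays between -1.67 and -1.41 throughout, *IL6ST* between -1.06 and -0.82, and *LIF*, with 2 reads in WT, ranges from 0.68 to 3.63.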

How the data were processed

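Single early blastocysts were sequenced after Smart-seq2, and per the paper's methods the authors used Trimmomatic for trimming, Hisat2 for alignment against ARS-UCD1.2 and featureCounts for counting. The deposited values are a signal: read counts scaled by size factors from DESeq2. Of 201120 values, 201120 (100%) fell on multiples of an embryo's own step (tolerance 0.01 step), which returned the reads, 2223670 to 5134855 per embryo. A gene at or below 3 reads in an embryo was taken as at the floor. Strand setting, annotation release and treatment of reads shared by several genes are not given in the sources used here. Reads carry no molecular identifiers, so counting covers only part of the error.

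limma (3.58.1, lmFit and eBayes with a trend) was run on log2(normalized read count + 1) over genes with a mean of at least 1, all 10 embryos, no covariates. Each embryo is 1 replicate. DESeq2 (1.42.0) and edgeR's quasi-likelihood test (4.0.16) on recovered reads, in R 4.3.3, were alternatives, with pseudocounts of 0.1 and 5, equal totals, the median log ratio, quantile normalization, 2 other filters, sample quality weights, the *RN18S1* share as covariate, adjusted p alone and leaving out each embryo. Ratios to *STAT3* were compared by exact permutation (Python 3.11.15, scipy 1.17.1). The fits were tested on simulated data. The genes and lists were chosen with earlier results of these data known. The text names the 10 genes, *SOX2*, *POU5F1*, genes of the ligand, receptor, JAK, STAT and inhibitor lists, called genes of the other lists, the 5 genes most like *STAT3* and marker genes. *IRF1*, *KLF4*, *TFCP2L1* and *GRB2* were named after their values were seen. Levels were not compared between genes, since transcript lengths were not used here, and no sequence or coordinate of ARS-UCD1.2 was used here. *OSM* and 6 other listed genes are not analysed here, and some genes of the lists are not reported here.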

Additional observations from a re-analysis of the deposited data

Results flagged for a closer look

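In 36 groups of 5 embryos, 2 values stood apart from the others of their group by Dixon's criterion, where chance gives about 1.8. *PIAS3* in ko1 was 39.0 normalized read counts, whereas the other *SOX2* KO embryos had 18.1 to 20.9. *STAT2* in nc1 was 56.5, whereas the other WT embryos had 37.1 to 41.8. Neither gene was called with or without the embryo in question.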

How the results depend on the processing

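*STAT3* kept its call in 22 of 22 alternatives, with log2 fold changes of -1.67 to -1.41, and *IL6ST* kept an adjusted p of at most 0.0378 (-1.06 to -0.82). The calls among the 10 genes came to 1 with pseudocounts of 0.1 or 5, quantile normalization, a mean of at least 10 (which drops *LIF*) and the *RN18S1* share as covariate, and to 1 to 2 with 1 embryo left out. Of all genes, 1185 were called with a pseudocount of 5, 1076 with quantile normalization, 692 at a mean of at least 10, 3515 with quality weights, 220 with the *RN18S1* share, and 930 (without ko5) to 3316 (without ko4) with 1 embryo left out. Of the other pathway genes, 7, 6, 24 and 3 were called with quantile normalization, a mean of at least 10, quality weights and the *RN18S1* share, and 8 to 22 with 1 embryo left out. *STAT3* relations that passed numbered 2 with quantile normalization and 3 to 7 with 1 embryo left out. The share of calls that were higher was 88.5%, and 58.5% with quantile normalization, 72.5% at a mean of at least 10, 62.3% with the *RN18S1* share and 76.5% by adjusted p alone. Quantile normalization moved the median log2 fold change of all genes from 0.25 to -0.02 and equal totals to 0.14.

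Signs turned for genes that were not called. *SOCS3* was -0.095 with equal totals, -0.28 with quantile normalization, -0.64 with the *RN18S1* share, -0.031 in DESeq2 and -0.11 in edgeR. *LIFR* was -0.012, *PIAS3* -0.050, *STAT4* -0.70 and *STAT5B* -0.070 with quantile normalization. *IL6* was 0.023, *STAT4* -0.51 and *STAT5B* -0.13 with the *RN18S1* share, and *IL6R* was 0.022 with the median log ratio. With 1 embryo left out, *SOCS3* ranged from -0.30 to 0.18, *PIAS3* from -0.074 to 0.29, *STAT4* from -0.19 to 0.63 and *IL6R* from -0.15 to 0.032. The cause was not tested. No paired analysis was possible because ko1 to ko5 could not be matched to the replicate numbers in the labels. Depth limits *LIF* and the scarce receptors, where 3 reads are the floor.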
